A study of Mus musculus with 6 samples.

Results

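Interneurons of the hippocampus release neuropeptides beside GABA, and transcripts of 10 genes for the receptors of these peptides were measured in this tissue in mice of the strains C57BL/6 and DBA/2. The genes were taken by name from the deposited table: Npy1r, Npy2r and Npy5r for neuropeptide Y, Sstr1, Sstr2, Sstr3 and Sstr4 for somatostatin and cortistatin, Vipr1 and Vipr2 for vasoactive intestinal peptide (VIP), and Cckbr for cholecystokinin. All 10 were found, each on 1 row, among 51912 genes, and all 10 passed the filter on low counts with 17517 genes in all. The study had 3 libraries of C57BL/6, the strain of the mouse reference genome, and 3 of DBA/2, another inbred strain. Hippocampus is the only tissue labelled, no treatment is labelled for these 6 libraries, and sex, age and substrain are not stated. The series asked which genes are expressed at different levels in the strains. Whether each library stands for 1 animal is not plain from the labels. The p-values therefore cover only how far these libraries spread, which may be partly technical.

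All of these receptors are G protein-coupled. Receptors for neuropeptide Y and somatostatin act mainly through Gi and Go proteins, which lower cyclic AMP, open G protein-gated potassium channels and reduce transmitter release, while the VIP receptors raise cyclic AMP through Gs and the cholecystokinin B receptor acts mainly through Gq and phospholipase C. In the hippocampus the Y2 receptor is known for presynaptic inhibition of glutamate release, the somatostatin receptor encoded by Sstr3 for its place in the primary cilium of neurons, and neuropeptide Y and somatostatin for limiting seizures.

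Of the 10 receptor genes, 3 were lower in DBA/2 and none was higher, while over all tested genes 13.7% were lower and 9.09% higher. Sstr3 was 1.91-fold lower, Vipr2 was 3.75-fold lower and Npy2r was 1.18-fold lower, and the other 7 did not pass the test. The proximal promoters of these 3 genes are shown because the 3 genes moved in the same direction. They are RefSeq sequences of build GRCm38.p6, which is the C57BL/6J genome, from 250 bases before to 50 bases after the annotated start, written 5′ to 3′ on the strand of the gene. Sstr3 has 2 annotated starts in RefSeq. Both of its windows lie inside the GENCODE M21 span used below, 78537008 to 78544685, so the annotations differ on where this gene starts. Capitals mark GGGCGG, known as a GC box, or the box named after its letters CCAAT, or TGACG, a half-site of the cyclic AMP response element. Each was searched on both strands.
Sstr3, upstream start, chr15:78544296-78544595, minus strand: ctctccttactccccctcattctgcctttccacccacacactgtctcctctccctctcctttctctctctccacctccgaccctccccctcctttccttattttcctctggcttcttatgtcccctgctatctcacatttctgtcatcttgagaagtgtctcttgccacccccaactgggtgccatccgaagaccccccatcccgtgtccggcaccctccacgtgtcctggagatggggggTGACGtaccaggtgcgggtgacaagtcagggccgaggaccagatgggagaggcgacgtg
Sstr3, downstream start, chr15:78541357-78541656, minus strand: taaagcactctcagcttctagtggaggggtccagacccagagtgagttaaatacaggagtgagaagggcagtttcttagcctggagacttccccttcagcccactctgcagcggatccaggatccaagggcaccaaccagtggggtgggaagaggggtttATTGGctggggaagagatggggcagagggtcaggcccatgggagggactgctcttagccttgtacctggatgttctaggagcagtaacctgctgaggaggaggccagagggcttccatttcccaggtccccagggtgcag
Vipr2, chr12:116077476-116077775, plus strand: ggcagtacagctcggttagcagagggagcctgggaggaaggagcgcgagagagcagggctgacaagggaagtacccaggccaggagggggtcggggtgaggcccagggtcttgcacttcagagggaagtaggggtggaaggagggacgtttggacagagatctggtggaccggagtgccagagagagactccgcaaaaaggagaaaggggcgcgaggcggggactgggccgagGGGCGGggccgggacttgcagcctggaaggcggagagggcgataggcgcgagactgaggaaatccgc
Npy2r, chr3:82548036-82548335, minus strand: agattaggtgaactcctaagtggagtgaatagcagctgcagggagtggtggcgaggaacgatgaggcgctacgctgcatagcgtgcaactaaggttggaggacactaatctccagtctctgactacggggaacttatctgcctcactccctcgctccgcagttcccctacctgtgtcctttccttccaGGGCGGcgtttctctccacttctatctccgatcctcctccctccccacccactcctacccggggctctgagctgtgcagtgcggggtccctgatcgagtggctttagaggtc

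The upstream promoter of Sstr3 held 1 TGACG half-site, the downstream one 1 CCAAT box, and those of Vipr2 and Npy2r 1 GC box each. No motif of the search was in all 4 windows. Among 32851 RefSeq promoter windows of the same length, 20.8% held TGACG, 37.4% held CCAAT, 35.7% held GGGCGG and 13.6% held the TATA box TATAAA, which none of the 10 receptor windows held. The windows of the 3 genes differed in CpG content, with 10 CpG dinucleotides at the upstream start of Sstr3, 1 at its downstream start, 18 for Vipr2 and 14 for Npy2r, against a median of 7 over all windows. A promoter entry was found for 9 of the 10 receptor genes, in 10 windows. A full cyclic AMP response element (TGACGTCA, present in 1.79% of all windows) was found in 1 of these, that of Sstr2, where it contains the half-site on both strands. These matches are letters in a reference sequence, and no DBA/2 sequence was used.

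The 3 C57BL/6 libraries held 13867280 to 20185683 counts in all, and the DBA/2 libraries 13839366 to 16912153. Markers of hippocampal subfields fixed by list were all measured: 12 for CA1 and CA2, 9 for CA3 and 12 for dentate granule cells, with levels in CPM (counts scaled by library size, with TMM factors). CA1 and CA2 markers summed to 907 to 954 CPM in C57BL/6 and 825 to 937 CPM in DBA/2. Of these, 5 were higher and 3 lower in DBA/2, 66.7% of the list against 22.8% of all tested genes. Fewer of them, as of all genes, were called without 2 C57BL/6 libraries with over 100 Xist counts, which leaves 1 C57BL/6 library. CA3 markers summed to 970 to 1031 and 988 to 1117 CPM (2 higher, 1 lower, 33.3% of the list, and fewer without those libraries). Dentate markers summed to 699.6 to 716 and 684 to 745 CPM (3 higher, 3 lower, 50% of the list). Markers of the neighbouring thalamus and habenula summed to 562 to 787 CPM in C57BL/6 and 298 to 401 CPM in DBA/2, with none of the 14 at 0. Of the 14, 7 were lower in DBA/2 (12 by DESeq2 and 14 by limma-voom), 50% of the list against 22.8% of all tested genes. Of 12 oligodendrocyte and myelin markers 3 were lower in DBA/2, 25% of the list against 22.8% of all tested genes. There were 8 by DESeq2, 10 by limma-voom and fewer than 3 without the libraries with Xist counts. Their summed levels were 7068 to 8835 and 4758 to 6421 CPM. Choroid plexus markers summed to 704 to 1558 CPM in C57BL/6 and 1274 to 2799 CPM in DBA/2, markers of neocortex and striatum to 337 to 341 and 349.8 to 411 CPM, and vessel markers to 199 to 279 and 262 to 316 CPM. Libraries 1 and 3 of C57BL/6 held 3214 and 6995 counts of Xist, the RNA of the inactive X chromosome of females, and the other 4 held 1 to 12. Xist was thus high in 2 of 3 C57BL/6 libraries and in none of DBA/2, and the sex of the animals is not labelled. For some of the results, a refit without those 2 libraries, here called the libraries with Xist counts, is also given. In whole tissue, fewer cells of a type and less RNA per cell cannot be told apart.

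Levels were tested with edgeR's quasi-likelihood test, with p-values adjusted by Benjamini-Hochberg over all 17517 genes and a call at an adjusted p under 0.05. Over all of these genes 22.8% were called, 13.7% lower and 9.09% higher in DBA/2, so a count of 3 of 10 receptors called, all lower, has to be read against those shares and says nothing particular to these genes. For the same 3 of 10 receptors, as for 36.8% of all genes tested, the ranges of the strains were separate. The median log2 fold change (DBA/2 over C57BL/6) was -0.17 over the 10 receptors and 0.0027 over all genes tested. Of the 10 values, 7 were negative and 3 positive. Without the 2 C57BL/6 libraries with over 100 Xist counts, 1 C57BL/6 library was left, which is assumed to vary like the others. Fewer genes were called in all there. The calls of Sstr3 and Vipr2 held (log2 fold changes -0.94 and -1.83) and that of Npy2r did not (-0.28).

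**Figure D1:**
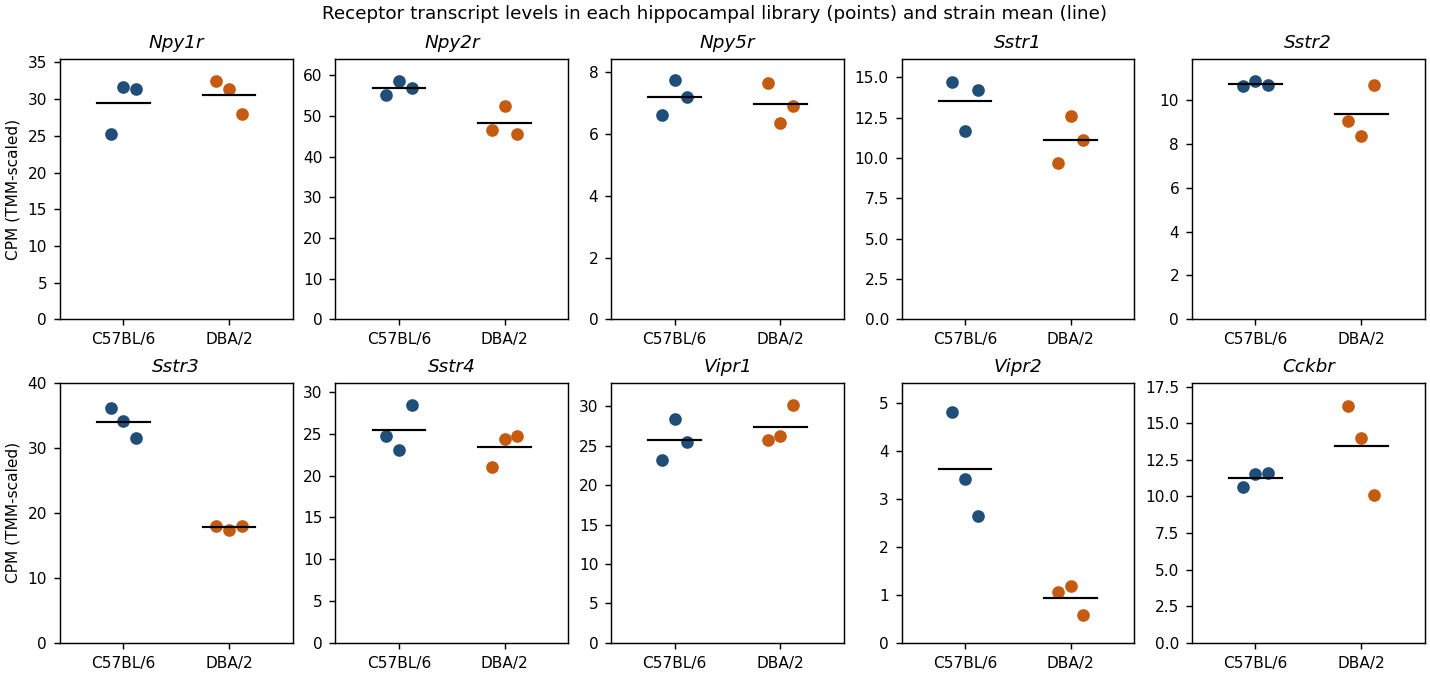
Level of each receptor transcript in CPM (vertical axes, from 0) in the 3 C57BL/6 and 3 DBA/2 libraries (points, with a line at the strain mean). The libraries separate by strain for Npy2r, Sstr3 and Vipr2 and overlap for the other 7.

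Of the receptors for neuropeptide Y, Npy2r was lower in DBA/2 and the other two were not called. Npy2r (ENSMUSG00000028004, chromosome 3, 82538383 to 82548084, minus strand), the presynaptic Y2 receptor, had 55.1, 58.6 and 56.8 CPM in C57BL/6 and 46.7, 52.5 and 45.7 CPM in DBA/2. Each C57BL/6 library was above each DBA/2 library, though the gap between the closest pair was small. The means were 56.9 ± 1.74 and 48.3 ± 3.70 CPM (SD, n = 3 each). The log2 fold change was -0.23 ± 0.06 (SE), with a 95% interval of -0.37 to -0.10 and an adjusted p of 0.00955 (edgeR). This call rested on few libraries: leaving out C57BL/6 replicate 2 gave an adjusted p of 0.0503, leaving out DBA/2 replicate 1 gave 0.0511 and leaving out DBA/2 replicate 3 gave 0.0566. Without the 2 libraries with Xist counts the log2 fold change was -0.28 and the adjusted p 0.0811.

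Npy1r (ENSMUSG00000036437), the Y1 receptor, which is mostly postsynaptic, had 25.2, 31.6 and 31.4 CPM in C57BL/6 and 32.5, 31.3 and 28.0 CPM in DBA/2. The ranges overlapped, with replicate 1 the lowest library of C57BL/6. The log2 fold change was 0.06 with a 95% interval of -0.12 to 0.24 (edgeR, adjusted p = 0.691), so a change as large as that of Sstr3 lies outside the interval. Npy5r (ENSMUSG00000044014), the Y5 receptor, had 6.62, 7.73 and 7.18 CPM in C57BL/6 and 7.63, 6.36 and 6.92 CPM in DBA/2. Its log2 fold change was -0.04 with a 95% interval of -0.33 to 0.25 (adjusted p = 0.886), and the strains overlapped here too. Npy1r and Npy5r are neighbours on chromosome 8 that are read in opposite directions, Npy1r from 66697192 to 66706792 on the plus strand and Npy5r from 66679965 to 66688128 on the minus strand. Their annotated starts lie 9.06 kb apart, and their exons do not overlap. Per length, Npy1r was the more abundant of the pair, with 8.43 ± 1.06 FPKM against 2.78 ± 0.215 FPKM for Npy5r in C57BL/6, and 8.92 ± 0.707 against 2.74 ± 0.252 FPKM in DBA/2 (SD, n = 3 each).

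Of the 4 somatostatin receptor genes, Sstr3 was lower in DBA/2 and the others were not called. Sstr3 (ENSMUSG00000044933, chromosome 15, 78537008 to 78544685, minus strand) had 36.1, 34.2 and 31.5 CPM in C57BL/6 and 17.9, 17.4 and 18.0 CPM in DBA/2. The lowest C57BL/6 library was well above the highest DBA/2 library, and the DBA/2 libraries lay close together. The means were 33.9 ± 2.30 and 17.8 ± 0.309 CPM (SD, n = 3 each), from 469 to 632 counts per C57BL/6 library and 250 to 305 per DBA/2 library. Sstr3 fell by 0.93 on the log2 scale, with an SE of 0.08, a 95% interval of -1.10 to -0.76 and an adjusted p of 3.59e-09 (edgeR). Leaving out any 1 library gave log2 fold changes of -0.98 to -0.88 with an adjusted p of at most 1.72e-07, and leaving out the 2 libraries with Xist counts gave -0.94 with 2.90e-07. Sstr3 ranked 1131 of 17517 genes by size of the change, and Vipr2 ranked 342.

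Sstr1 (ENSMUSG00000035431, chromosome 12, 58211772 to 58214444) had 14.7, 11.7 and 14.2 CPM in C57BL/6 and 9.69, 12.6 and 11.1 CPM in DBA/2. The lowest C57BL/6 library, replicate 2, lay below the highest DBA/2 library, also replicate 2. The log2 fold change was -0.29 ± 0.12 (SE), with a 95% interval of -0.54 to -0.04, and did not pass after adjustment over all genes (edgeR, adjusted p = 0.0942). It passed without C57BL/6 replicate 2 (-0.37, adjusted p = 0.0424) and without DBA/2 replicate 2 (-0.39, adjusted p = 0.0408). Without the 2 libraries with Xist counts it was -0.06 with an adjusted p of 0.907.

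Sstr2 (ENSMUSG00000047904, chromosome 11, 113619342 to 113626028), a receptor that is internalized after binding its peptide, had 10.7, 10.9 and 10.7 CPM in C57BL/6. In DBA/2 it had 9.04, 8.36 and 10.7 CPM. Replicate 3 of DBA/2 lay at the C57BL/6 level and the other DBA/2 libraries below it, and the log2 fold change of -0.20 had a 95% interval of -0.46 to 0.05 (edgeR, adjusted p = 0.259). Sstr4 (ENSMUSG00000037014, chromosome 2, 148395344 to 148396767), a receptor known from CA1 pyramidal cells, had 24.7, 23.0 and 28.4 CPM in C57BL/6 and 21.1, 24.4 and 24.7 CPM in DBA/2. The strains overlapped, with a log2 fold change of -0.13 and a 95% interval of -0.32 to 0.06 (adjusted p = 0.352). The interval of Sstr3 did not overlap with those of the other 3 somatostatin receptors. Whether the genes differ in their change was not tested.

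The makeup of the somatostatin receptor transcripts differed with it. Of the summed FPKM of the 4 genes, Sstr3 held 23.8%, 24.4% and 20.1% in C57BL/6 libraries 1 to 3 and only 16.1%, 14.0% and 14.2% in those of DBA/2. Sstr4 held 46.8 ± 2.84% in C57BL/6 and 53.4 ± 0.975% in DBA/2, and Sstr1 17.3 ± 1.28% and 17.7 ± 1.57% (SD, n = 3 each). Shares of a sum depend on each other, so they add no result independent of the lower Sstr3. The level of Sstr4 itself did not rise, with 17.7 FPKM in C57BL/6 and 16.5 FPKM in DBA/2. The summed level was 37.7 ± 2.24 FPKM in C57BL/6 and 31.0 ± 2.13 FPKM in DBA/2 (SD, n = 3 each). The lowest C57BL/6 library, at 35.3 FPKM, was above the highest DBA/2 library, at 32.4 FPKM.

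Of the VIP receptors, Vipr2 was lower in DBA/2 and Vipr1 was not called. Vipr2 (ENSMUSG00000011171, chromosome 12, 116077726 to 116146261, plus strand), which encodes the VPAC2 receptor and is known for its role in the circadian clock and for expression in thalamus, had 4.82, 3.43 and 2.64 CPM in C57BL/6. In DBA/2 it had 1.06, 1.18 and 0.576 CPM. The C57BL/6 values rest on 80, 47 and 53 counts and those of DBA/2 on 18, 20 and 8, the fewest of the 10 genes. Every C57BL/6 library was above every DBA/2 library, but libraries of a strain also differed from each other, with coefficients of variation of 30.3% and 34.0%. The log2 fold change was -1.91 ± 0.29 (SE), with a 95% interval of -2.51 to -1.30 and an adjusted p of 2.62e-05 (edgeR). It was -1.64 without C57BL/6 replicate 1 and -1.68 without DBA/2 replicate 3, and -1.83 without the 2 libraries with Xist counts (adjusted p = 0.000983). On the log2(FPKM + 1) scale, where a low gene's change is compressed, the difference was -0.57 (limma, adjusted p = 0.00618).

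Markers of thalamus and habenula were lower in the same libraries as Vipr2. Their summed level was 787, 562 and 647 CPM in C57BL/6 and 401, 346 and 298 CPM in DBA/2. Replicate 1 was the highest C57BL/6 library, and replicate 3 the lowest DBA/2 library, for both Vipr2 and the summed markers. The other ends differed: the lowest C57BL/6 library was replicate 3 for Vipr2 and replicate 2 for the markers, and the highest DBA/2 library was replicate 2 for Vipr2 and replicate 1 for the markers. Summed myelin and choroid plexus markers were also highest in C57BL/6 replicate 1 and lowest in DBA/2 replicate 3 within the strains. Choroid plexus markers had a median log2 fold change of 0.44, in the other direction. The sums of neocortex and striatum and of vessel markers were highest in another C57BL/6 library, but were also lowest in DBA/2 replicate 3 within DBA/2. All 14 thalamus and habenula markers had a negative log2 fold change, with a median of -0.98. The part of these markers, or of the myelin markers given above, in the lower values of Vipr2, Sstr3 and Npy2r was not tested.

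**Figure D2:**
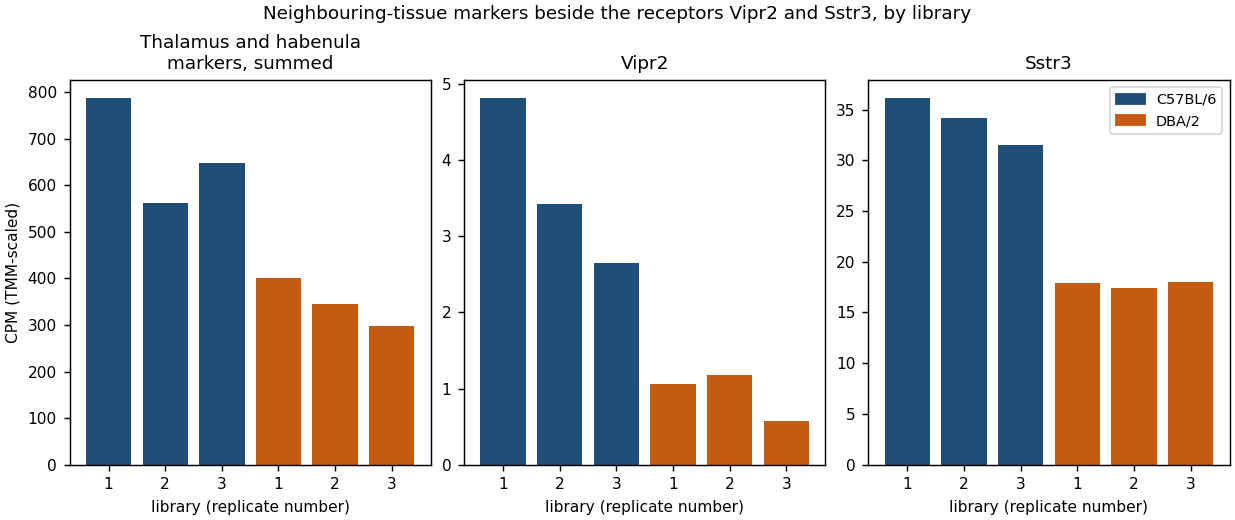
Summed level of 14 thalamus and habenula markers (left), Vipr2 (middle) and Sstr3 (right) in CPM (vertical axes, from 0) in each library (bars, by replicate number). Replicate 1 of C57BL/6 is the highest bar in each panel, and all DBA/2 bars are below all C57BL/6 bars.

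Vipr1 (ENSMUSG00000032528, chromosome 9, 121642716 to 121672954), which encodes the VPAC1 receptor, had 23.2, 28.4 and 25.4 CPM in C57BL/6 and 25.8, 26.3 and 30.2 CPM in DBA/2. The strains overlapped, and the log2 fold change of 0.09 had a 95% interval of -0.09 to 0.27 (edgeR, adjusted p = 0.496). Per length, Vipr1 made up 84.4 ± 4.99% of the FPKM of the VIP receptors in C57BL/6 and 95.6 ± 1.69% in DBA/2 (SD, n = 3 each), and their summed level was 5.19 ± 0.354 and 4.97 ± 0.333 FPKM.

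Cckbr (ENSMUSG00000030898, chromosome 7, 105425731 to 105470898), the main cholecystokinin receptor of the forebrain, had 10.7, 11.5 and 11.6 CPM in C57BL/6 and 16.1, 14.0 and 10.1 CPM in DBA/2. Replicates 1 and 2 of DBA/2 were above all C57BL/6 libraries and replicate 3 was below them. The log2 fold change was 0.26 with a 95% interval of -0.02 to 0.55 (edgeR, adjusted p = 0.187). Without DBA/2 replicate 3 it was 0.43 with an adjusted p of 0.0105, so 1 library decided whether Cckbr was called.

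Levels of different genes were compared per length, in FPKM. In C57BL/6 the order was Sstr4 (17.7 ± 1.97 FPKM), Npy2r (16.6 ± 0.526), Sstr3 (8.55 ± 0.557), Npy1r, Sstr1 (6.54 ± 0.788), Sstr2 (4.96 ± 0.0503), Vipr1 (4.39 ± 0.441), Cckbr (3.89 ± 0.186), Npy5r and Vipr2 (0.807 ± 0.243; SD, n = 3). The library ranges of the neighbours Sstr4 and Npy2r, Sstr3 and Npy1r, and Vipr1 and Cckbr overlapped in C57BL/6. In DBA/2 the first places were again held by Sstr4 (16.5 ± 1.41 FPKM) and Npy2r (14.4 ± 1.15 FPKM) and the last by Npy5r and Vipr2 (0.213 ± 0.0737 FPKM). Sstr3 went from place 3 in C57BL/6 to place 7 in DBA/2, at 4.56 ± 0.0666 FPKM. There it lay among Sstr1 (5.48 ± 0.726 FPKM), Vipr1 (4.76 ± 0.401 FPKM), Cckbr (4.72 ± 1.09 FPKM) and Sstr2 (4.39 ± 0.539 FPKM), whose neighbouring ranges overlapped.

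**Figure D3:**
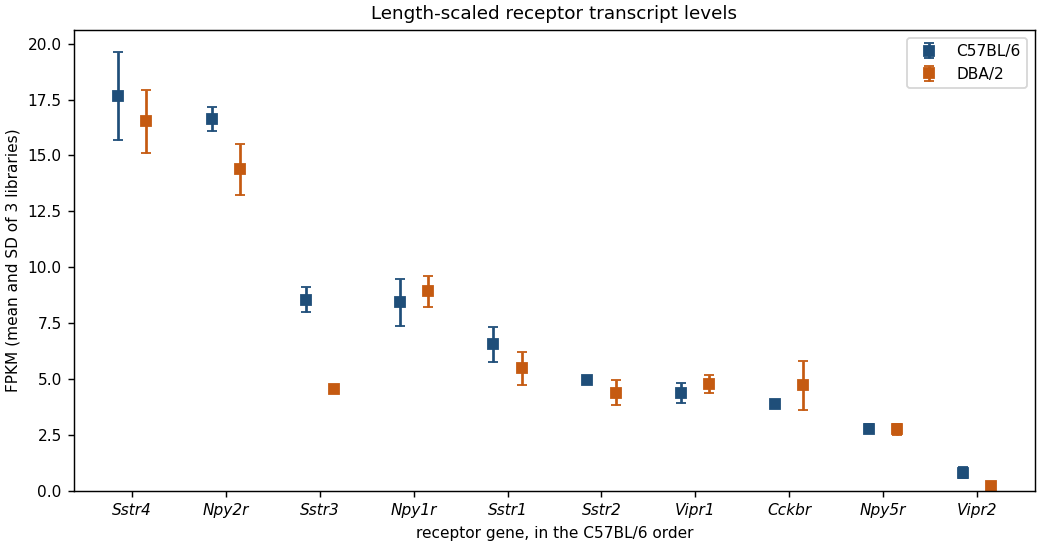
FPKM (vertical axis, from 0) of the 10 receptor genes, ordered by the C57BL/6 mean; squares are means and bars are SDs of 3 libraries per strain. Sstr4 and Npy2r are the most abundant in both strains, and Sstr3 drops from 8.55 to 4.56 FPKM.

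The peptides themselves were measured in the same libraries, and 6 of the 8 peptide genes on the list passed the filter, with 1 called higher and 2 lower in DBA/2, beside 9.09% and 13.7% of all tested genes. These calls were lost without the 2 libraries with Xist counts, a refit with 1 C57BL/6 library in which fewer genes were called in all. Npy had 26.2, 30.3 and 27.4 CPM in C57BL/6 and 29.4, 27.0 and 30.6 CPM in DBA/2, with overlapping ranges and a log2 fold change of 0.05 (95% interval -0.11 to 0.22). Sst, the precursor of somatostatin, had 123, 144 and 142 CPM in C57BL/6 and 123, 111 and 138 CPM in DBA/2. Its log2 fold change of -0.14 was not called (edgeR, adjusted p = 0.27), but was -0.21 with an adjusted p of 0.0329 without DBA/2 replicate 3.

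Cort encodes cortistatin, a relative of somatostatin that binds the same receptors. It had 2.35, 2.04 and 3.39 CPM in C57BL/6 and 0.763, 0.589 and 1.15 CPM in DBA/2. Its log2 fold change was -1.68 ± 0.31 (SE; edgeR, adjusted p = 0.00023), and without the 2 libraries with Xist counts it was -1.30 with an adjusted p of 0.0797. Vip had 14.3, 14.1 and 13.5 CPM in C57BL/6 and 20.3, 16.6 and 20.2 CPM in DBA/2, each DBA/2 library above each C57BL/6 library. Vip rose by 0.45 ± 0.10 on the log2 scale (SE; edgeR, adjusted p = 0.00183), the opposite direction to Vipr2, and this was 0.43 with an adjusted p of 0.074 without the libraries with Xist counts.

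Adcyap1, which encodes PACAP, a peptide that also binds both VIP receptors, had 6.68, 7.51 and 8.83 CPM in C57BL/6 and 6.58, 4.71 and 4.75 CPM in DBA/2. The log2 fold change was -0.52 ± 0.16 (SE; edgeR, adjusted p = 0.0217), but the call was lost without C57BL/6 replicate 3 (adjusted p = 0.153), DBA/2 replicate 2 (0.102) or DBA/2 replicate 3 (0.078). It was also lost in the DESeq2 Wald test (adjusted p = 0.093) and without the libraries with Xist counts (0.24). Cck had 283, 300 and 276 CPM in C57BL/6 and 301, 264 and 309 CPM in DBA/2, with a log2 fold change of 0.02 and a 95% interval of -0.09 to 0.14. Pyy and Ppy, the other peptides of the neuropeptide Y family, had 0 counts in all 6 libraries.

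**Figure D4:**
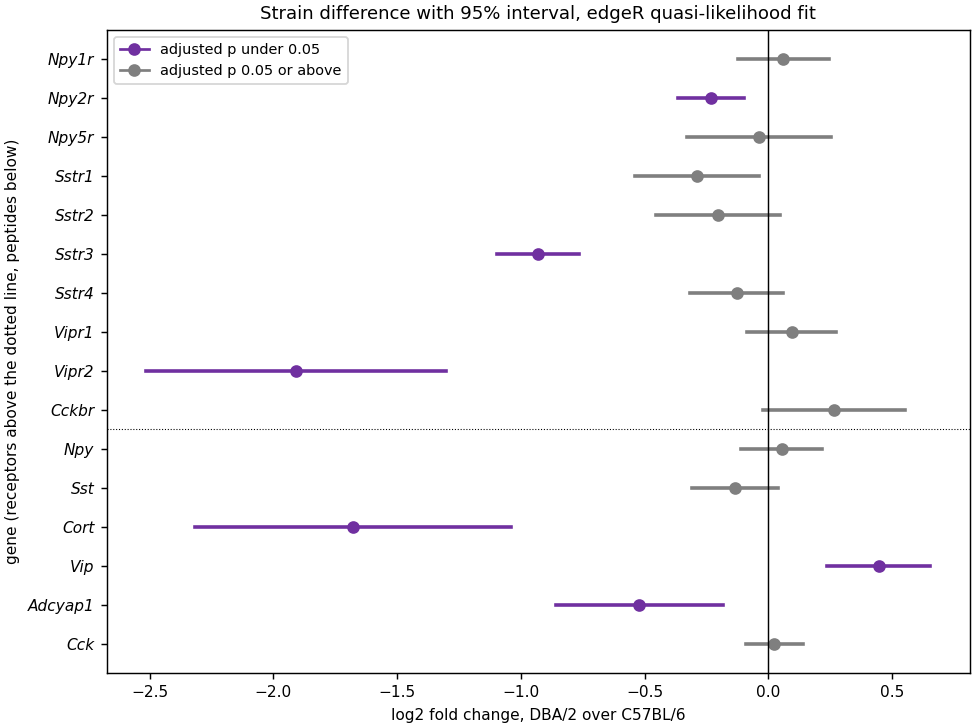
Log2 fold change (DBA/2 over C57BL/6, horizontal axis) with its 95% interval for the 10 receptor genes and the 6 peptide genes tested; purple marks an adjusted p under 0.05. Vipr2, Cort and Sstr3 lie farthest from 0, and Vip is the only gene of the plot that was called higher.

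Of 14 further receptors for these and similar peptides 13 were in the table and 8 passed the filter, of which 1 was lower in DBA/2, 12.5% of those tested against 22.8% of all genes, and 2 were lower without DBA/2 replicate 1. The 1 called gene was Adcyap1r1, the PACAP-preferring receptor, which fell from 212 ± 6.33 to 170 ± 10.2 CPM (SD, n = 3 each; log2 fold change -0.32 ± 0.05 SE; edgeR, adjusted p = 3.55e-05). The remaining somatostatin receptor gene, Sstr5, did not pass the filter, with summed counts of 27 (C57BL/6) and 29 (DBA/2), nor did Cckar, with 18 and 9 counts. The neuropeptide Y receptor gene Npy4r had 0 and 2 counts and Npy6r had 1 and 2.

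G proteins, their effectors and the proteins that desensitize receptors were listed as 32 gene symbols. The symbols Adrbk1 and Adrbk2 were not found, while Grk2 and Grk3 were. The 30 symbols found were all tested, and 4 were higher and 9 lower in DBA/2. This is 43.3% of those tested against 22.8% of all tested genes. The median over the list was -0.04 (log2 fold change). These calls fell to 1 higher and 7 lower without C57BL/6 replicate 1, where those over all genes fell from 4000 to 3131. Fewer of the list, as of all genes, were called without the libraries with Xist counts, which leaves 1 C57BL/6 library. Of the alpha subunit genes on the list, Gnal, of the Gs class, was the only one called. It had 190.8, 182.7 and 201.2 CPM in C57BL/6 and 152.5, 174.5 and 152.7 CPM in DBA/2, with separate ranges (log2 fold change -0.26 ± 0.06 SE; edgeR, adjusted p = 0.00111). The others were not called: Gnai1, Gnai2, Gnai3, Gnao1 and Gnaz of the Gi and Go class had log2 fold changes from -0.06 (Gnai3) to 0.09 (Gnaz), Gnas of the Gs class had -0.0085, and Gnaq and Gna11 of the Gq class had 0.09 and 0.04. All are named here for their role, after their values were seen. Plcb4, a phospholipase C, fell from 61.0 ± 7.16 to 41.7 ± 2.39 CPM, and Adcy7, an adenylyl cyclase, from 11.7 ± 0.683 to 7.04 ± 0.331 CPM (SD, n = 3 each; edgeR, adjusted p = 1.26e-05 and 7.42e-05). The cyclase genes Adcy1, Adcy6 and Adcy9 were instead higher, with log2 fold changes of 0.15, 0.19 and 0.25. Adcy2, Adcy3, Adcy5 and Adcy8 were not called. Of the desensitizing genes, Arrb1, Arrb2 and Grk3 were lower, and Grk2, Grk5 and Grk6 were not called. Of the G protein-gated potassium channel genes, Kcnj9 and Kcnj5 were lower, Kcnj6 was higher and Kcnj3 was not called. Kcnj5 had 2.06 ± 0.972 and 0.599 ± 0.196 CPM (SD, n = 3 each; log2 fold change -1.80), which became -0.75 with an adjusted p of 0.57 without the libraries with Xist counts.

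Of 15 genes for processing, storage and degradation of peptides, 1 was higher and 8 were lower in DBA/2, beside shares of 9.09% higher and 13.7% lower over all tested genes. The list's median was -0.14 (log2 fold change). Scg5, a chaperone of the proprotein convertase encoded by Pcsk2, rose from 166 ± 9.00 to 361 ± 27.4 CPM (log2 fold change 1.12 ± 0.06 SE; edgeR, adjusted p = 1.19e-12). Pcsk2 itself was lower, with 279 ± 5.85 CPM in C57BL/6 and 230 ± 10.8 CPM in DBA/2 (log2 fold change -0.27; edgeR, adjusted p = 9.83e-05). Cpe, the carboxypeptidase that trims peptide precursors, fell from 2332 ± 56.8 to 1791 ± 3.76 CPM, and Rnpep, an aminopeptidase, from 49.7 ± 2.05 to 36.2 ± 2.31 CPM (SD, n = 3 each; adjusted p = 3.43e-07 and 1.50e-05).

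Of 19 interneuron markers, 3 were higher and 3 lower, which is 31.6% of the list against 22.8% of all tested genes. Fewer of these markers, as of all genes, were called without the libraries with Xist counts. The interneuron markers had summed levels of 1688 to 1765 CPM in C57BL/6 and 1670 to 1812 CPM in DBA/2 that overlapped. Calb2 and Tac2, both lower, are on the thalamus and habenula list as well. Because the Sstr3 receptor is found on cilia, 19 genes of the neuronal cilium were counted after its values were seen. Of these 1 was higher and 2 were lower in DBA/2, which is 15.8% of the list against 22.8% of all tested genes. The median was 0.05 (log2 fold change), with overlapping summed levels of 755 to 770 and 735 to 783 CPM. Kif17, a kinesin that carries cargo in dendrites and cilia, fell from 27.5 ± 1.13 to 16.5 ± 0.332 CPM, and Gpr161, a ciliary receptor, from 80.2 ± 3.34 to 54.8 ± 8.68 CPM (SD, n = 3 each; edgeR, adjusted p = 2.61e-07 and 0.000681). Kif3a, a kinesin of transport in cilia, was higher, with 164 ± 4.81 and 182 ± 6.49 CPM (SD, n = 3 each; log2 fold change 0.15, adjusted p = 0.0244), and was not called without C57BL/6 replicate 1 or 2 or DBA/2 replicate 2 or 3 (adjusted p of at most 0.104), or without the libraries with Xist counts (0.207). Adcy3, the adenylyl cyclase of neuronal cilia, had a log2 fold change of -0.03 and was not called.

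The surroundings of the receptor genes were also counted after the values were seen. Within 500 kb of the 10 gene starts lay 99 tested neighbours, of which 7 were higher and 15 lower in DBA/2, near the shares of 9.09% and 13.7% over all tested genes. Npy1r and Npy5r, each a neighbour of the other, are 2 of the 99. Around Sstr3 there were 26 tested genes, 3 higher and 5 lower, with a median log2 fold change of -0.0039. The nearest tested genes on its sides, C1qtnf6 (13.3 kb between starts) and Gm6723 (10.2 kb), had log2 fold changes of 0.12 and -0.39 and were not called. Around Vipr2 there were 6, 1 higher and 1 lower, and around Npy2r 4, of which 1 was lower.

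**Figure D5:**
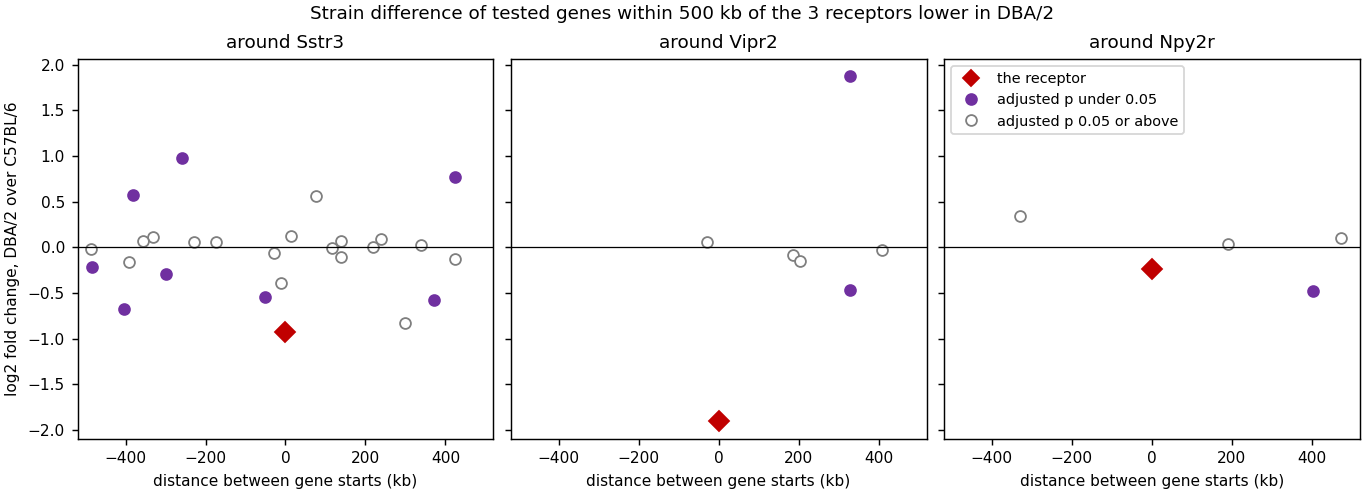
Log2 fold change (DBA/2 over C57BL/6, vertical axis) against the distance between gene starts in kb (horizontal axis, positive downstream of the receptor) for tested genes around Sstr3 (26 genes), Vipr2 (6) and Npy2r (4). Diamonds are the receptors, and genes near Sstr3 lie on both sides of 0.

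The receptor genes of a family are related but differ in sequence, and whether their reads were counted apart was not tested. Between the coding sequences of GENCODE M21, identity over aligned bases was 64.2% to 71.0% among the 4 somatostatin receptors, highest for Sstr1 and Sstr4. It was 58.8% to 62.2% among the neuropeptide Y receptors and 64.8% between Vipr1 and Vipr2. None of the 10 genes had another gene whose transcript matched over at least 200 bases at 95% identity. No exon of the 10 genes overlapped with an exon of another annotated gene. The spans of Sstr2 and Vipr2 overlap with those of Slc39a11 and Gm20658, and whether reads were counted by strand is not given in the sources used here. Reads of DBA/2 were placed on a C57BL/6J reference, and differences in how well they map were not tested.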

How the data were processed

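RNA of 6 hippocampal libraries, 3 per strain by the strain label, was sequenced from an NEBNext Ultra library on an Illumina HiSeq, per the labels' protocols. Per the submitters' processing notes the tools were Trimmomatic 0.30, HISAT2 2.0.1 and Cufflinks 2.2.1, and the build GRCm38. For the counting program and annotation, the sources used here give none. The authors deposited raw counts per gene, and FPKM that equalled the deposited count divided by gene length and library total, in the usual scaling, within 0.005. Another 12 columns of per-sample values match no labelled sample and were not used. Coordinates are from GENCODE M21 (GRCm38), which held 99.7% of the tested gene IDs.

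Counts were fitted with edgeR 4.0.16 (glmQLFit, robust, TMM factors, filterByExpr) in R 4.3.3. Alternatives included DESeq2 1.42.0 and limma 3.58.1. Intervals use the SE, the absolute log2 fold change divided by the square root of F. In simulated counts of 17277 genes (DBA/2 against C57BL/6), 100 genes were changed 1.5-fold and 100 2-fold, and 65% and 87% were recovered. In the data far more genes, 4000, were called, so these rates may not hold there, nor for smaller changes. Libraries of a strain differed by more than sampling noise (chi-square per degree of freedom 3.36 to 4.22), so no library was treated as a repeat deposit of another. This does not show that they came from separate animals. Same-numbered libraries correlated at 0.14, -0.11 and 0.0008 in their deviations, and differently numbered ones at -0.14 to 0.14. These correlations cannot decide whether the numbers pair libraries, and the main fit used no pairing. Similar transcripts were sought with BLAST 2.17.0. The receptors and gene lists were chosen with earlier results of these data known. A rule named all receptors, the tested peptides and up to 3 called members per list, of which the text prints those beside a receptor result. Other genes in the text were picked outside this rule, with their values known. Among them are Pcsk2 and the G protein, cyclase, desensitizing and potassium channel genes other than Plcb4, Adcy7 and Kcnj5.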

Additional observations from a re-analysis of the deposited data

How the results depend on the processing

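Over 159 pairs of a receptor gene and a refit, 152 kept the result of the main fit, called or not called. Of the rest, 4 lost a call, all for Npy2r, which kept its call in 12 of 16 refits. The other 3 gained a call, 2 for Sstr1 and 1 for Cckbr. None of the called genes reversed, while Npy1r, Npy5r, Sstr4 and Vipr1, which were not called, changed sign in some refits. The calls of Sstr3 and Vipr2 held in every refit that tested them, with log2 fold changes of -0.98 to -0.78 for Sstr3 and -2.11 to -0.57 for Vipr2. A filter at a mean of 5 CPM removed Vipr2. Leaving out 1 library gave log2 fold changes of -0.30 to -0.19 for Npy2r, -0.39 to -0.19 for Sstr1 and 0.11 to 0.43 for Cckbr. Npy2r was not called without the 2 C57BL/6 libraries with Xist counts (-0.28), an alternative chosen after seeing the data, under which 2012 genes were called in place of 4000. With a log2 fold change of at least 1 as an added threshold 912 genes and 1 receptor gene, Vipr2, were called. Leaving out every library with at least 10 Xist counts was not run as a test, since it leaves 1 library per strain. Leaving out 1 library gave 3131 to 3717 genes and 2 to 4 receptor genes. The replicate number as a block gave 3827 genes and the same count of 3 receptor genes, and it changed no receptor call. It did change marker calls, to 6 for choroid plexus, 11 for myelin and 12 for thalamus and habenula. The main fit had 0, 3 and 7. Scaling by library size alone gave 1945 higher and 2202 lower genes. Vipr2 rests on 8 to 80 counts a library, so its size is less precise than those of the other receptor genes.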
